A study of Mus musculus with 2 samples.

Results

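The S100 and annexin genes were examined in 4T1 cells, a mouse mammary carcinoma line of BALB/c origin, after untreated cultures had been sorted with ALDEFLUOR, a fluorescent substrate retained by cells with high aldehyde dehydrogenase (ALDH) activity. A gene was included when its name on the array was S100a followed by a number, S100b, S100g, S100z, S100pbp or Anxa followed by a number, which gave 29 of the 35019 genes on the array, 17 of them S100 genes and 12 of them annexins, with 40 probes on 49 spots. The array labelled as cancer stem cells was read as ALDH-positive and the array labelled as their opposite as ALDH-negative, because the study defines stem-like cells by high ALDH activity and the sample labels themselves do not name it. Every direction below rests on that reading. With 1 single-colour array for each population, no difference reported here has a replicate, a test or a p-value. No transgene, drug or host animal was involved, and nothing in the labels says how many cultures or sorts were pooled for an array. All 6 epithelial marker genes were above background on both arrays, as 4T1 cells should show, with a median log2 ratio of 0.18, all 6 above 0 and none past the limits defined below. Signals below are normalized intensities and are given with the ALDH-negative array first. For Krt18, a keratin of simple epithelia, they were 206389 and 231164.

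Most S100 proteins are small dimeric calcium sensors with a pair of EF-hand loops in each subunit. On binding calcium most of them expose a surface that holds target proteins, and several are secreted and bind receptors on other cells. Annexins bind acidic phospholipids of membranes in a calcium-dependent way and take part in membrane repair, vesicle traffic and plasminogen activation at the cell surface. The families meet in complexes such as annexin A2 with S100A10, which docks plasminogen and its activator, and annexin A1 with S100A11. Most mouse S100 genes lie side by side on chromosome 3 beside genes of the epidermal cornified envelope. In mammary carcinoma the S100A4 protein is best known for its link to cell motility and metastasis, and S100A8 with S100A9 for inflammation.

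The probes are 60 bases long, and 5 of them are printed because they fall on the parts of the proteins that define the families. In the 3 S100 probes, the capitals mark 30 bases that, read in a frame without a stop codon, encode the last 10 residues of a calcium-binding EF-hand loop, searched for as asparagine, any residue, aspartate, any 6 residues and glutamate. In the 2 annexin probes, the capitals mark 30 bases that encode a stretch shared by annexin repeats, searched for as aspartate, isoleucine or leucine, any residue, serine, glutamate, any residue, serine, glycine, any residue and phenylalanine. Both patterns were chosen after the probe sequences had been seen, and only the 3 frames of the printed strand were searched.
S100a1: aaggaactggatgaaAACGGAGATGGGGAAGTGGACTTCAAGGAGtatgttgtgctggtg
S100a6: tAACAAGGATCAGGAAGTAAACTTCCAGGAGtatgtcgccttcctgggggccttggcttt
S100a8: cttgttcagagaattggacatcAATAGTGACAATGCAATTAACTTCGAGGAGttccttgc
Anxa3: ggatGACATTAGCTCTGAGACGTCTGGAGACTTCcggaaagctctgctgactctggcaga
Anxa11: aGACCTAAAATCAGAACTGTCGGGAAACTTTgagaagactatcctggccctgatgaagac

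In the array's coordinates (mouse build NCBI37) these probes lie at chr3:90315191-90315250 on the minus strand for S100a1, chr3:90418160-90418219 on the plus strand for S100a6, chr3:90473778-90473837 on the plus strand for S100a8, chr5:97253925-97253984 on the plus strand for Anxa3 and chr14:26694168-26694227 on the plus strand for Anxa11. The loop pattern was found in 45 of all 55681 probes (0.0808%) and the annexin pattern in 2 (0.00359%), both of them shown here. The highest ungapped identity among 768 pairs of probes of different genes, over at least 40 shared positions and with the motifs included, was 67.4%, between S100a1 and S100a6, followed by 57.9% between Anxa11 and Anxa3.

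Of the 29 genes, 23 had a probe well above background on at least 1 array (13 S100 genes and 10 annexins), and all 23 were above background on both. The remaining 6 were not well above background on either array. They were S100a9, the partner of S100a8 in calprotectin, S100b, a protein of glia, adipocytes and melanocytes, S100g, the intestinal calcium carrier calbindin-D9k, S100z, Anxa10 and Anxa13. Normalized signals of the 23 measured genes ran from 22.4 to 305267 intensity units, but brightness depends on the probe and orders no gene against another. The plot of signals by gene shows how little most pairs of points separate.

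**Figure D1:**
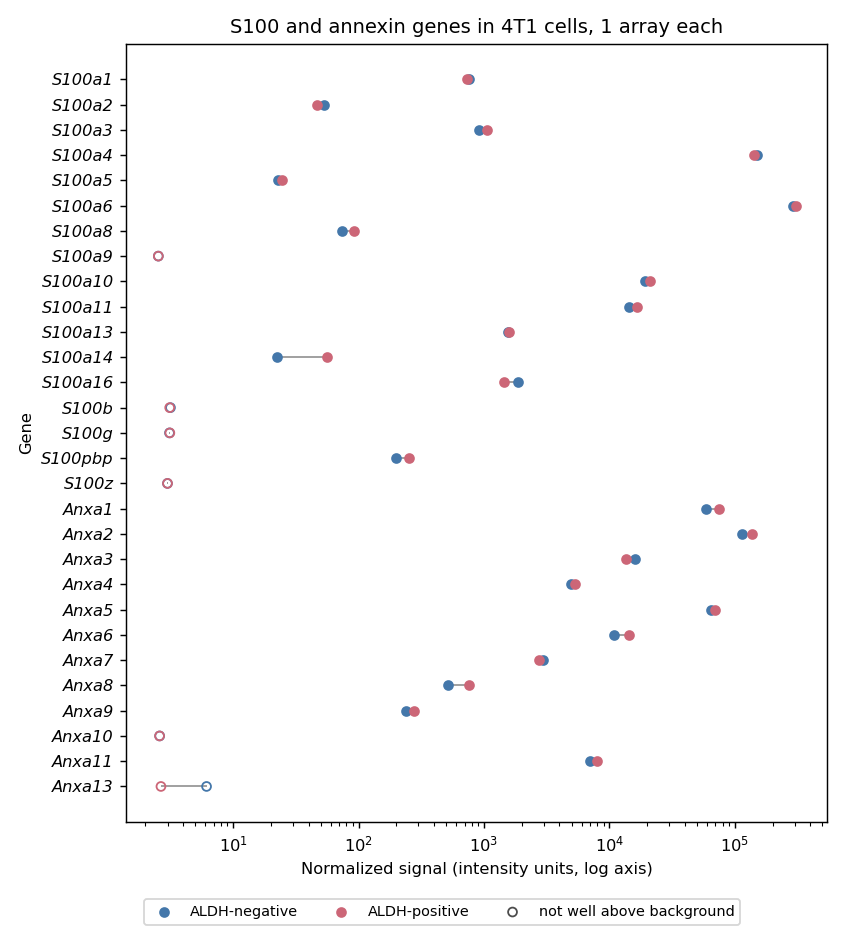
Normalized signal (intensity units, log axis) of each S100 and annexin gene on the ALDH-negative (blue) and the ALDH-positive (red) array, 1 probe a gene, with open circles for probes not well above background. The widest gap among measured genes is that of S100a14, at 22.4 and 56.1, whereas the points of S100a6, S100a4 and S100a13 nearly coincide.

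On these arrays nearly all genes of both families fell short of the limits for a call, as did most genes of the array. This does not show that their levels are equal. A gene is called higher here when its ratio, ALDH-positive over ALDH-negative, was at least 1.5 and its Z-score, the distance of its log2 ratio from the mean of probes of like brightness in units of their SD, was at least 2. It is called lower at a ratio of at most 0.75 and a Z-score of at most -2. By these limits 1 of the 23 measured genes, S100a14, was higher, against a background of 1.6% of all 20488 measured genes, and 0 were lower, against 3.26%. Counts this small are no result about the families as groups. The log2 ratio was above 0 in 17 of the 23 genes (73.9%), compared with 53.9% of all measured genes. The median log2 ratio was 0.10 over the 13 S100 genes and 0.21 over the 10 annexins, beside 0.020 over all measured genes, whose interquartile range was -0.15 to 0.17. Without S100pbp, whose protein carries no EF hand, the S100 median was 0.085 over 12 genes. The scanner's own error of a log2 ratio, which covers the signal of each spot and not the variation between cultures, had a median of 0.20 in both the families and all genes. It was the same, 0.204, in bright genes such as Anxa1, Anxa2, S100a4 and S100a6. There it acts as a fixed width and is not a measured spread. It was larger in dim genes such as S100a5, at 0.35. Of the 23 members, 11 lay within their error of 0, 10 above it and 2 below. The same shares over all measured genes are not given here, so these counts are no result about the families.

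**Figure D2:**
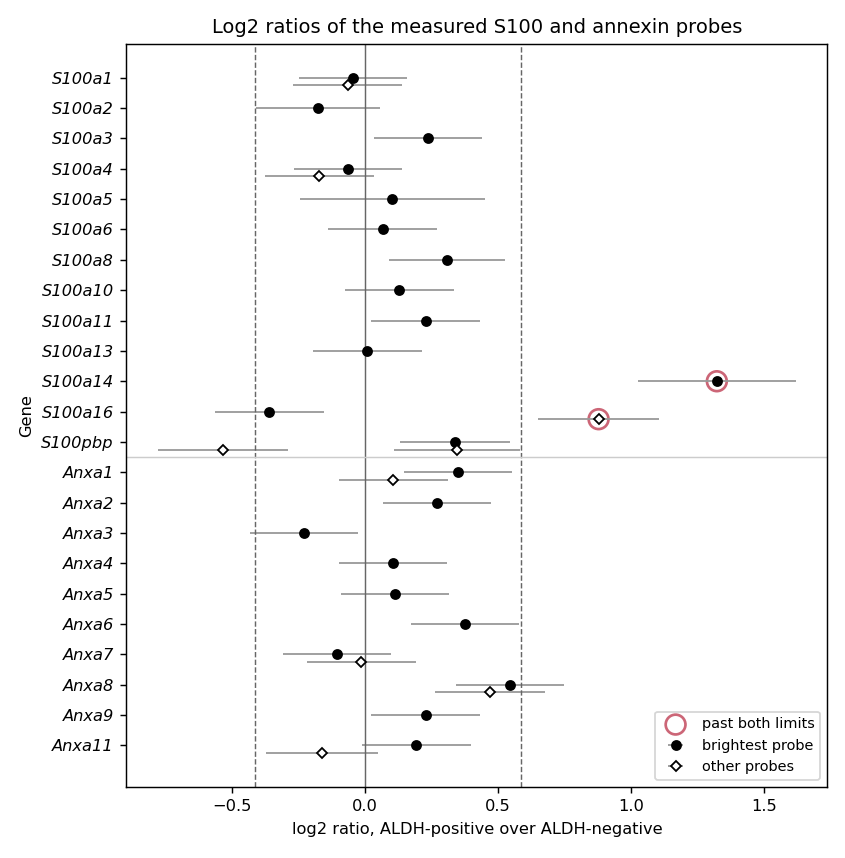
Log2 ratio (ALDH-positive over ALDH-negative) of every measured S100 and annexin probe, with the scanner's error as bars; filled circles are the probe with the highest mean signal of each gene, open diamonds its other probes, dashed lines the ratios 0.75 and 1.5, and rings the probes past both limits. Only S100a14 and the dimmer probe of S100a16 are ringed, and the annexins sit between -0.23 and 0.54.

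S100a14, an S100 protein of epithelia, gave signals of 22.4 and 56.1, and thus a log2 ratio of 1.32 with a scanner error of 0.30 and a Z-score of 2.58. It was the highest value among the members. Its single spot was dim, with a mean brightness of 87.2 and 129.9 units over local backgrounds of 54 on both arrays, and the processed signals before normalization were 20.2 and 63.7. The size of the difference turned on how that background was treated. With normexp correction the log2 ratio was 0.47 and without any background correction 0.46, both below the limits, and with a shift to a common 75th percentile in place of quantile normalization the ratio stayed above its limit at a log2 value of 1.19 but the Z-score was 1.85. The 50 measured probes within 5 rows and 5 columns of the spot had a median log2 ratio of -0.029, with 0 called higher and 1 lower.

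S100a16, the gene next to S100a14 on the chromosome, was measured by a pair of probes that pointed in opposite directions. The probe with the higher signal went from 1857 to 1448 (log2 ratio -0.36, error 0.20, Z-score -1.82). The dimmer probe went from 43.6 to 80.1 (log2 ratio 0.88, error 0.23, Z-score 2.11), which is past both limits. These probes lie at chr3:90346529-90346588 and chr3:90346875-90346934 on the plus strand and are assigned to the same transcript. The first lies in the last eighth of the array's rows or columns, a region in which 4.06% of 4975 measured genes were called higher, compared with 0.806% of 15513 genes elsewhere, and 4.70% lower, compared with 2.80%. The part of that region in the disagreement was not tested, and no direction is given for S100a16. Of the 13 measured S100 genes, 7 are represented by a probe in that region. They are S100a3, S100a4, S100a5, S100a10, S100a11, S100a13 and S100a16. Their median log2 ratio was 0.10, compared with 0.19 for the 6 elsewhere. Among the annexins, the Anxa9 probe and 5 of the 10 spots of the brighter Anxa8 probe lie there.

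Among the S100 genes linked to inflammation, S100a8 had signals of 74.5 and 92.3 (log2 ratio 0.31, error 0.22, Z-score 0.84). The level of S100a9 was 2.53 on both arrays, not well above background. Neutrophils carry both transcripts in abundance, so their markers were read beside these values. Of 10 neutrophil markers 3 were measured, Ly6g, Mpo, Ltf, Ngp, Cebpe, Mmp8 and Retnlg being below background on both arrays, and the summed signal of the list was 41750 for the ALDH-negative and 30773 for the ALDH-positive array. Csf3r, the receptor of granulocyte colony-stimulating factor, made up most of that sum with signals of 40613 and 29746, and was called lower in ALDH-positive cells (log2 ratio -0.45, Z-score -2.63). Of 6 leukocyte markers, Ptprc and Adgre1 were below background, and Itgam, an integrin of myeloid cells, was lower by its brightest probe, with signals of 7301 and 3795 (log2 ratio -0.94). Of its dim probes, 1 gave 21.8 and 28.4 (log2 ratio 0.38, error 0.34), and the other gave 24.3 and was not well above background on the ALDH-positive array. The summed signal of the leukocyte list was 9214 and 5243, most of it Itgam. Elane, the neutrophil elastase, was at -0.16, and Camp, a neutrophil granule peptide, was above background on the ALDH-positive array alone, at 15.9. The cultures held no host tissue, and a link between these markers and the S100 values was not tested. Of 5 fibroblast markers 4 were measured (summed signal 280.1 and 344.7). Postn (periostin), whose spot lies in the last eighth of the array, was called higher at a log2 ratio of 0.96, whereas the collagen genes Col1a1 and Col1a2 and the receptor Pdgfra were at -0.70, -0.020 and -0.027. Of 3 endothelial markers 2 were measured (7324 and 5429), Kdr, a receptor of vascular endothelial growth factor, being called lower at -0.43 and Pecam1 standing at 0.21. Of 4 adipocyte and nerve markers, which were read beside S100b, Sox10 was above background on the ALDH-positive array alone, at 17.3. The lists are named for cell types that usually express these genes, and in sorted 4T1 cultures they do not count such cells. In bulk RNA, the share of 4T1 cells that express a gene and its level per cell cannot be told apart.

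The S100 genes with intracellular and motility roles differed little. S100a4, the metastasis-associated member, had signals of 149365 and 142877 (log2 ratio -0.064), and its second probe gave -0.17. S100a6, known as calcyclin, gave 291557 and 305267, with a log2 ratio of 0.066 that turned to -0.11 under the 75th percentile shift. For S100a1, best known from heart muscle, the signals were 753 and 731 (log2 ratio -0.044, and -0.065 for the probe printed above), and the value of its brighter probe turned to 0.015 under the same shift and to 0.0052 and 0.0054 under the other background treatments. All of these values lay within the scanner's error.

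S100a10, the annexin A2 partner, had signals of 19343 and 21163 (log2 ratio 0.13), and S100a11, the annexin A1 partner, 14208 and 16642 (log2 ratio 0.23, error 0.20). S100a13, which takes part in the release of growth factors lacking a signal peptide, was the closest to 0, with signals of 1564 and 1574 (log2 ratio 0.0088). S100a3, abundant in hair follicles, had signals of 905 and 1066 (log2 ratio 0.24). The dim genes S100a5 and S100a2 gave 0.10 with an error of 0.35 (-0.068 under the 75th percentile shift) and -0.18 with an error of 0.23. S100pbp, which encodes a nuclear protein that binds S100P and carries no EF hand of its own, was measured by 3 probes. The brightest had signals of 201 and 254 (log2 ratio 0.34), the second gave 0.35, and the third, designed to a different transcript, gave -0.53.

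Among the annexins, Anxa8 had the highest log2 ratio. Its signals were 521 and 760, a ratio of 1.46 (log2 ratio 0.54, error 0.20, Z-score 2.34), just under the limit of 1.5. Anxa8 is found in stratified epithelia and in ductal luminal cells of the mammary gland. Its second probe gave signals of 120 and 166 (log2 ratio 0.47). Under the 75th percentile shift the ratio was 1.51 and the gene passed both limits, which made it the single member called higher in place of S100a14.

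The Anxa8 probe is printed 10 times on each array, which shows the technical spread of a member directly. Before normalization the spots ran from 421 to 483 with a median of 436 in ALDH-negative cells, and from 841 to 963 with a median of 919 in ALDH-positive cells. The spots of the arrays did not overlap before normalization, and how often this holds for other probes printed 10 times is not given here. These signals include the higher overall brightness of the ALDH-positive array, on which the median log2 ratio of all measured probes before normalization was 0.49. The spots were not normalized singly. The shift that normalization gave the log2 ratio of the probe as a whole was added to the raw log2 ratio of each spot. The ratios of the 10 spots then lay between 0.44 and 0.64 on the log2 scale, with an SD of 0.072. The 5 spots in the last eighth of the array had a median of 0.52, compared with 0.54 for the 5 spots elsewhere. That gap is smaller than the SD over the spots, and it describes this probe alone. The SD of the log2 signal over the 10 spots, 0.063 and 0.062, was close to the median over all probes printed 10 times, 0.058 and 0.049. Spots of 1 array share 1 RNA sample, and this spread says nothing of the variation between sorts.

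**Figure D3:**
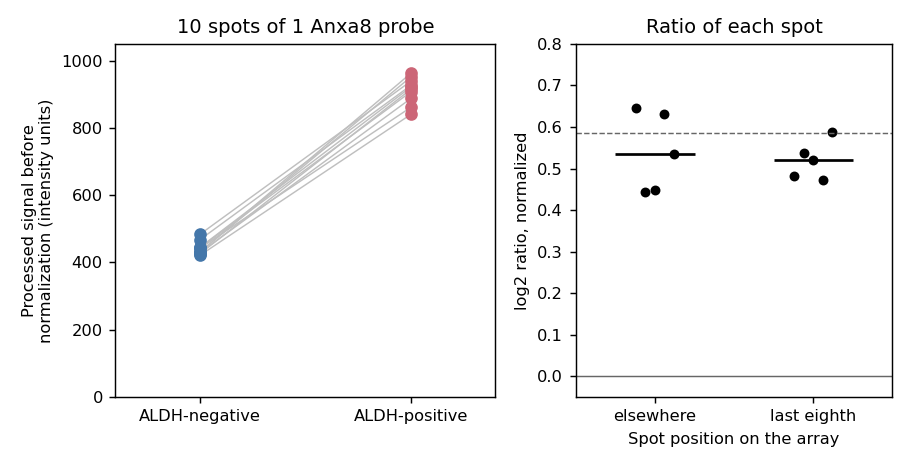
Left, processed signal before normalization (intensity units) of the 10 spots of 1 Anxa8 probe on each array, lines joining the same position. Right, log2 ratio of each spot inside and outside the last eighth of the array, shifted by the constant that normalization gave the probe. Bars mark the medians, 0.52 and 0.54, and the dashed line a ratio of 1.5. All 10 ratios lie between 0.44 and 0.64, and 3 spots stand on or above the dashed line.

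Anxa1, Anxa2 and Anxa6 followed. Anxa1, whose protein restrains phospholipase A2 and signals through formyl peptide receptors, had signals of 58601 and 74684 (log2 ratio 0.35, Z-score 2.54). Its second probe gave 0.11. Anxa2, the plasminogen-docking annexin, had signals of 114012 and 137604 (log2 ratio 0.27, Z-score 2.25), and Anxa6, a regulator of cholesterol traffic and endocytosis, 10950 and 14219 (log2 ratio 0.38, Z-score 1.83). The Z-scores of Anxa1, Anxa2, Anxa8 and S100a14 were at or above 2, but the ratios of Anxa1 and Anxa2 were 1.27 and 1.21. Of all measured genes, 2.45% had a Z-score of at least 2. Anxa1, Anxa2 and Anxa6 were above 0 in every one of the settings tried, at log2 ratios of 0.23 to 0.39, 0.21 to 0.27 and 0.37 to 0.45.

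The remaining annexins lay nearer to 0. Anxa5, the phosphatidylserine-binding protein used to stain dying cells, had signals of 64740 and 70035 (log2 ratio 0.11), and Anxa4, found at the apical side of epithelia, 4963 and 5340 (log2 ratio 0.11). Anxa9 had signals of 238 and 279 (log2 ratio 0.23). Anxa11, an adaptor between RNA granules and lysosomes, went from 6992 to 7994 (log2 ratio 0.19), while the dimmer probe printed above gave -0.16. Anxa7 had signals of 2942 and 2736 (log2 ratio -0.10, and -0.014 for its other probe). Anxa3, measured by the probe printed above, had the lowest value among annexins, with signals of 15877 and 13551 (log2 ratio -0.23, error 0.20). Over both families 8 genes had more than 1 measured probe. The probes shared a sign in 5 of them (Anxa1, Anxa7, Anxa8, S100a1 and S100a4) and did not in the other 3 (Anxa11, S100a16 and S100pbp).

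Genes that act with these proteins were read from lists of receptors, partners and related proteins. Of the 4 receptors that bind S100 proteins, Bsg (basigin) and Tlr4 were measured at log2 ratios of 0.082 and 0.13, and Ager, which encodes RAGE, and Cd36 were below background on both arrays. In the plasminogen system 6 of 8 genes were measured and 0 were called, with a median of 0.12. Plau, the urokinase that activates plasminogen, had the highest value, with signals of 1114 and 1444 (log2 ratio 0.38, ratio 1.30, Z-score 2.05), followed by Plat at 0.29 and the urokinase receptor Plaur at 0.17. Plasminogen itself was below background.

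Of the annexin A1 receptors and phospholipase list, Fpr1, Fpr2 and Fpr3 were below background on both arrays, and Pla2g4a, the cytosolic phospholipase A2, was at 0.0082. In the membrane repair list 10 of 12 genes were measured, 0 were called, and the log2 ratios ran from -0.15 for Capns1, the small calpain subunit (0.0016 by its second probe), to 0.15 for Myof (myoferlin). Of 15 other EF-hand genes, calmodulins and sorcin among them, 9 were measured and 0 were called, with a median of 0.083. Parvalbumin (Pvalb) was at -0.50 and grancalcin (Gca) at 0.29, both from dim probes.

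All 13 S100 genes numbered in the S100a series lie on chromosome 3, between S100a1 and S100a10, in a stretch of 70 genes of the RefSeq gene table (GRCm38.p6), of which 64 were on the array and 27 were measured. The 12 measured members there had a median log2 ratio of 0.085, and the 15 other genes a median of -0.047 with 6 above 0. S100a7a, an S100 gene whose name falls outside the inclusion rule, was at 0.040. Ivl, which encodes involucrin of the cornified envelope, gave 94.3 on the ALDH-negative array, was not well above background on the other and was called lower. Its ALDH-negative signal was 7.44-fold the lowest signal well above background on the ALDH-positive array. The late cornified envelope genes Lce1g and Lce1i were called higher, at log2 ratios of 0.76 and 1.12, from signals of 85.9 and 42.8 to 145.3 and 93.2. The genes of that family are alike in sequence, so their probes may not tell them apart. Lce1f was above background in ALDH-positive cells alone and was not called. Its signal there was 1.53-fold the lowest signal well above background on the ALDH-negative array, with a scanner error of 0.71 for its log2 ratio. Of the 13 cornified envelope genes listed, 4 were measured, all with values below 0, and Ivl was the single one called. Tchh, which encodes trichohyalin, had signals of 39.0 and 22.0 (log2 ratio -0.83, error 0.31), and Sprr1a was at -0.059. Crnn (cornulin) was above background in ALDH-negative cells alone. Its signal there was 1.31-fold the lowest signal well above background on the ALDH-positive array, with a scanner error of 0.56 for its log2 ratio.

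**Figure D4:**
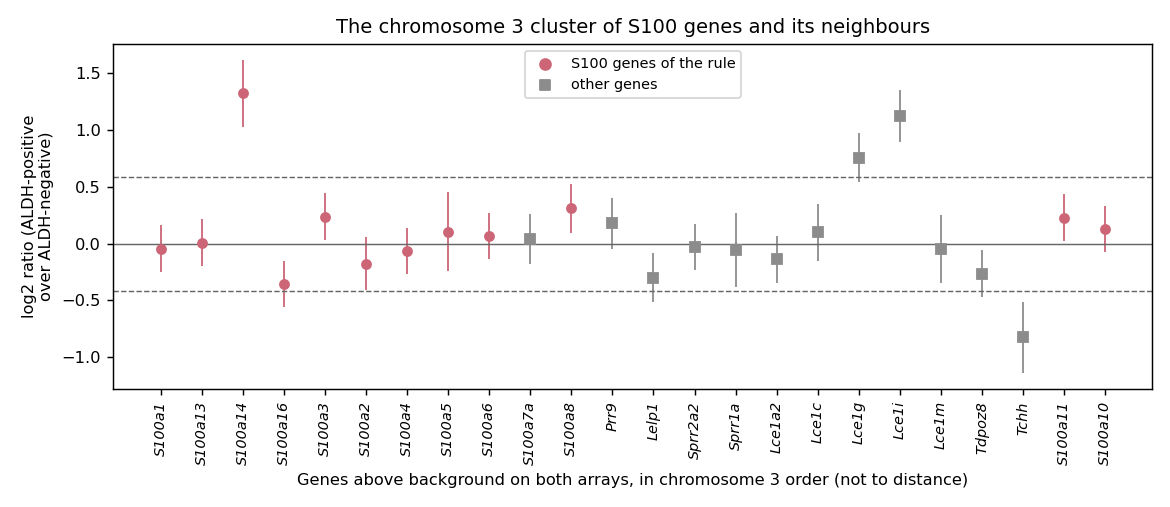
Log2 ratio (ALDH-positive over ALDH-negative) of the genes between S100a1 and S100a10 that were above background on both arrays, in their order on chromosome 3, with the scanner's error as bars and dashed lines at ratios of 0.75 and 1.5. S100a14 at 1.32 stands beside S100a13 at 0.0088 and S100a16 at -0.36, and Lce1g and Lce1i lie above the upper line.

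The plot of log2 ratios under other processing choices sets these differences against the treatment of the data. For Anxa8 the range over all settings was 0.47 to 0.60 and for S100a8 0.17 to 0.31, whereas S100a14 ran from 0.46 to 1.33 and S100a16 from -0.36 to 0.88.

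**Figure D5:**
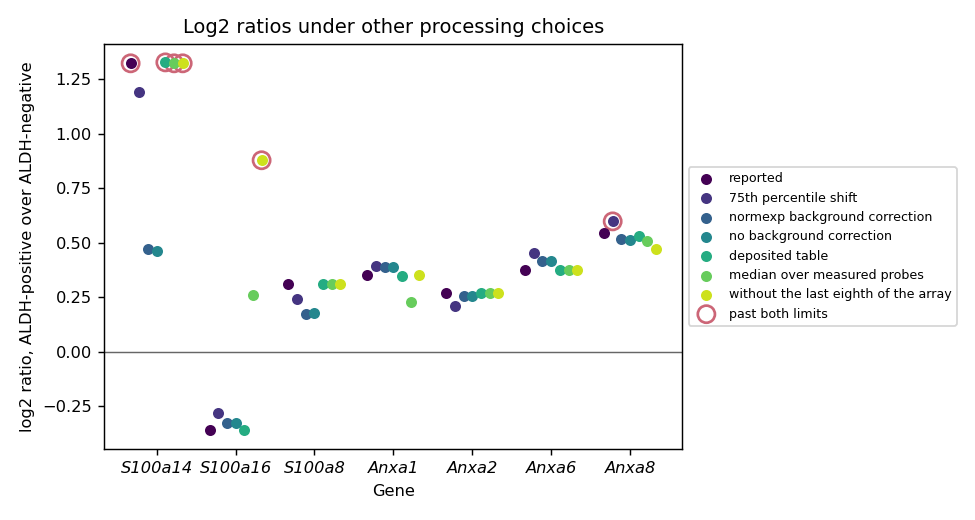
Log2 ratio (ALDH-positive over ALDH-negative) of 7 genes as reported and under 6 other processing choices, 1 point per choice, with rings for values past both limits. S100a14 falls to 0.47 and 0.46 under the other background treatments, Anxa8 is ringed under the 75th percentile shift alone, and S100a16 is ringed where the last eighth of the array is left out.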

How the data were processed

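The mRNA of 1 ALDH-negative and 1 ALDH-positive population was hybridised by the authors to Agilent mouse gene expression arrays with Cy3, and intensities were extracted with Feature Extraction (9.5.1.1 per the labels and 10.7.1.1 per the file headers). The deposited scanner intensity is a background-subtracted processed signal for each of 62976 spots. The authors' deposited table holds 1 quantile-normalized intensity for each of 55681 probes and served as an alternative. Here control spots were left out, as were spots flagged by the scanner software as population outliers (135 and 116) or as non-uniform. Processed signals were set to at least 1, log2 values were averaged per probe and both arrays were quantile-normalized with numpy 2.4.6. A gene was measured when a probe was well above background on at least 1 array (48.5% and 49.4% of probes were), and the measured probe with the highest mean log2 signal stood for it. The Z-score, which the methods do not define, compared each probe with the 250 dimmer and 250 brighter ones nearest to it. The limits were those of the methods. Where a probe was below background on 1 array, the fold was taken against the lowest signal well above background there. Such a fold is no strict bound. On the ALDH-positive array that lowest signal was 12.7, and an Itgam probe at 15.3 was still not well above background. Names are those of the array design, and the chromosomal order is that of the gene table. The members and lists were chosen with earlier results of these data known. The normexp alternative (offset 50) used limma 3.58.1. The steps were tested on simulated data. Every member gene was reported, and up to 4 genes of each related list were named. Most other genes of the lists are given by their counts, and some are not reported here. With 1 array per population, the number of arrays limits the precision.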

Additional observations from a re-analysis of the deposited data

How the results depend on the processing

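The number of S100 and annexin genes called higher was 1 as reported, 0 with normexp background correction, 0 with no background correction and 2 without the last eighth of the array, where S100a14 was joined by S100a16 through its dimmer probe. It was 1 under the other settings, but under the 75th percentile shift that gene was Anxa8 and not S100a14. The number called lower was 0 in every setting run. The median of the S100 genes ran from 0.0091 to 0.19 and that of the annexins from 0.15 to 0.22. Of 178 values of single genes under an alternative, 174 moved by less than the scanner's error and 171 kept their sign. Many of these values could not move. All 23 genes were above background on both arrays, so changing the background filter returned the reported values. The deposited table was quantile-normalized like the reported values. These counts are therefore no measure of how robust the values are. The values that moved were those of S100a14 (0.47 with normexp, 0.46 with no background correction) and S100a16 (0.26 as the median of its probes, 0.88 without the last eighth of the array). The cause was not tested beyond these settings. The median of all measured genes ran from 0.015 to 0.046 over the scalings and background treatments, the share called higher from 0.879% to 1.76% and the share called lower from 2.76% to 3.27%. No paired analysis was possible because each population has 1 array. Nor can the sort be told apart from the culture or the array. Dim signals limit S100a14, S100a5, S100a2 and S100a8 most.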
